A study of Mus musculus with 3 samples.

Results

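The nuclear-encoded respiratory chain genes are the chromosomal genes whose proteins build complexes I to V of the mitochondrial inner membrane. Members were taken by gene symbol (names beginning with Nduf, Uqcr, Cox4 to Cox8 or Atp5, together with Cyc1, Sdha, Sdhb, Sdhc and Sdhd) and by a minimum of 100 unique molecular identifiers (UMIs, 1 per captured RNA molecule) summed over all barcodes. Of 32285 genes, 95 matched by symbol and 93 were members, while Cox7b2 and Cox8c were not. By name, 39 members belonged to complex I, 8 to the complex I assembly factors (Ndufaf), 4 to complex II, 9 to complex III, 16 to complex IV and 17 to complex V. They lay on 19 chromosomes and were read beside the 13 protein-coding genes of mitochondrial DNA (mt- genes). The measurements were single-cell RNA-Seq of B16-F10 tumors, a mouse melanoma line grown in C57BL/6J mice 6 to 8 weeks of age. There were 3 libraries, each from the pooled tumors of 3 mice, 1 with a control shRNA in the tumor cells (shCtrl) and 2 with shRNAs against Mib2, an E3 ubiquitin ligase (shMib2 replicates 1 and 2). The labels number these 2 and give them the same treatment, so they are read here as separate shRNAs and used as replicates of 1 group. The shRNAs were carried by the tumor cells and not by the host, red cells were lysed during preparation, and cDNA was made by a 5' V(D)J protocol.

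Complexes I and II pass electrons from NADH and succinate to ubiquinone, complex III passes them on to cytochrome c, and complex IV reduces oxygen. Complexes I, III and IV pump protons, and complex V, the ATP synthase, makes ATP from the gradient. Complexes I, III, IV and V each combine subunits encoded in the nucleus with subunits encoded in mitochondrial DNA, whereas complex II is encoded in the nucleus alone.

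The targeted gene was read first. Melanoma cells had Mib2 at 2.51 UMIs per 1000000 UMIs of the gate (CPM) in shCtrl and at 3.10 and 2.67 CPM in shMib2 replicates 1 and 2, both above shCtrl, with a log2 difference of 0.15 with an SE of 0.12 (edgeR's quasi-likelihood test, Benjamini-Hochberg adjusted p = 0.562). Conditions are therefore named below as the libraries were labelled. The libraries held 190904274 to 243926188 UMIs in 8388 to 9558 barcodes. Barcodes were gated by marker lists into melanoma, T, NK, B, myeloid and stromal cells. Each gate's own markers stood well above 0 in every library, T markers at 54.4 to 56.9 UMIs per 10000 in the T gate and melanoma markers at 179 to 190 in the melanoma gate, although these markers also defined the gates. The melanoma gate held 8360, 6764 and 4521 cells in shCtrl, shMib2 replicate 1 and shMib2 replicate 2, an order kept for every set of values below. The T gate held 74, 519 and 715 cells, the NK gate 23, 221 and 335, the B gate 64, 77 and 127, the myeloid gate 10, 118 and 237, and the stromal gate 19, 307 and 290. The shCtrl myeloid and stromal sums, from fewer than 20 cells, were left out of the fits. Melanoma cells had medians of 24981 to 41388 UMIs and T cells of 1509 to 2652, so cell type and depth moved together. Melanoma markers in the other gates stood at 2.56% to 10.9% of their level in the melanoma gate, and hemoglobin and other erythroid markers reached 172 UMIs per 10000 in the shCtrl myeloid gate. The part of depth and of such foreign RNA in the differences below was not tested except where a value is given. Libraries shared between 20 and 30 barcodes pairwise.

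Melanoma cells gave the members the largest part of their RNA. Members made up 5.02%, 5.08% and 5.51% of melanoma UMIs in the 3 libraries, a mean of 5.20% ± 0.269 (SD, n = 3). T cells, with shares of 2.15%, 2.54% and 2.59%, had a mean of 2.42% ± 0.240. The lowest melanoma value was above the highest T value, and the melanoma share was 2.15 ± 0.168 times the T share in the same library. NK cells held 2.54% ± 0.0991, myeloid cells 2.37% ± 0.485, stromal cells 2.22% ± 0.111 and B cells 1.95% ± 0.367 (SD, n = 3 each). The order below melanoma was NK, T, myeloid, stromal and B cells, in which neighbouring gates differed by less than the larger of their SDs. Gates are paired within a library, and with 3 pairs the smallest p an exact two-sided paired permutation test allows is 0.25, so these mean shares were given no test. Melanoma was above every other gate in all 3 libraries. After removal of the melanoma counts expected from the melanoma markers in each gate, the mean share was 2.28% in T cells and 2.07% in stromal cells. Single cells with at least 1000 UMIs gave median member shares of 4.92%, 5.01% and 5.50% in melanoma and 1.89%, 2.24% and 2.19% in T cells.

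**Figure D1:**
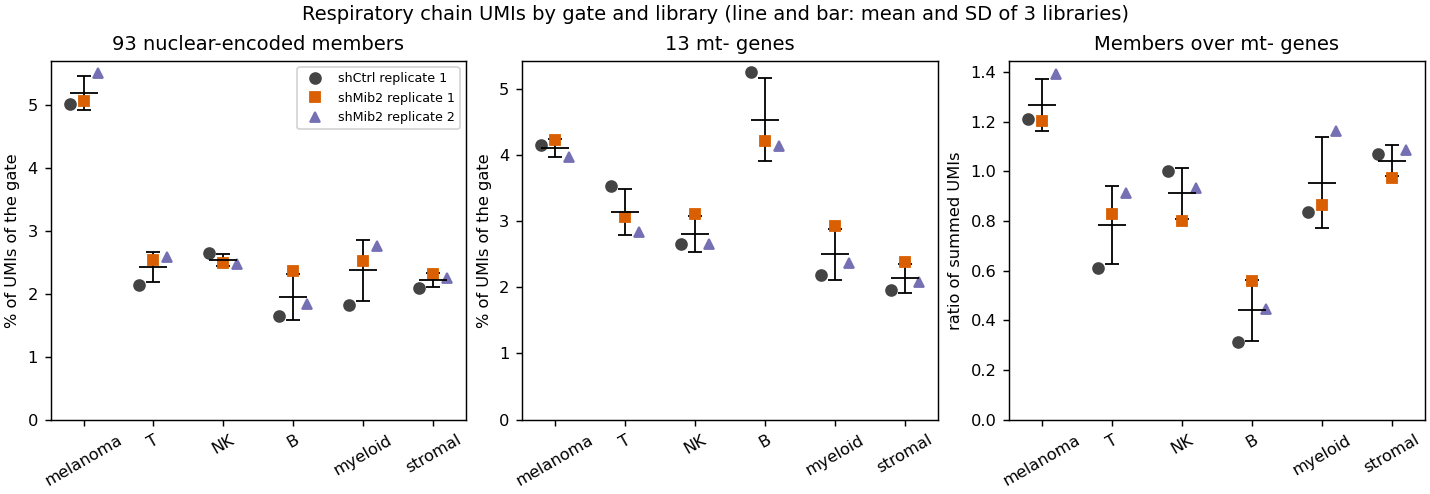
Percent of a gate's UMIs from the 93 members (left) and from the 13 mt- genes (middle), and the ratio of the summed UMIs (right), for 6 marker gates. Each point is 1 library and the line and bar are the mean and SD of 3 libraries. In the left panel the melanoma points lie between 5.02% and 5.51%, above all points of the other gates, while in the middle panel the B points lie between 4.13% and 5.25% and overlap the melanoma points.

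The mt- genes followed another order across the gates. B cells had the highest mean mt- share, from 5.25%, 4.21% and 4.13%, against 4.14%, 4.22% and 3.96% in melanoma cells, so these gates overlapped and melanoma was just higher in shMib2 replicate 1. T cells had 3.52%, 3.06% and 2.83%, and stromal cells had the lowest mean, 2.14% ± 0.218. The ratio of member UMIs to mt- UMIs was therefore 1.27 ± 0.107 in melanoma, 1.04 ± 0.0624 in stromal cells, 0.784 ± 0.157 in T cells and 0.440 ± 0.123 in B cells (SD, n = 3). The single B ratios were 0.314, 0.560 and 0.447, all below the lowest T ratio of 0.610. Within complex I, nuclear members supplied 1.65%, 1.65% and 1.77% of melanoma UMIs and 0.633%, 0.762% and 0.775% of T UMIs. For complex V, the ATP synthase, the nuclear shares were 1.46%, 1.48% and 1.56% in melanoma and 0.719%, 0.816% and 0.828% in T cells.

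Among melanoma cells the member share varied little with depth and the mt- share varied much more. Across 6 bins of UMIs per barcode, members held between 4.81% and 6.61% of UMIs in every library. Under 2000 UMIs, in 73, 109 and 326 barcodes, the mt- share was 1.43%, 1.59% and 1.14%. Between 5000 and 10000 UMIs it was 6.65%, 5.61% and 2.35%, with shMib2 replicate 2 far below the other libraries. Over 40000 UMIs the 3 libraries came together at 3.76%, 3.82% and 3.84%. The ratio of members to mt- genes was thus 3.64, 3.22 and 5.33 in the shallowest bin and 1.38, 1.37 and 1.44 in the deepest. It did not fall steadily between them. Between 2000 and 5000 UMIs it was 2.21, 2.52 and 6.69, and between 5000 and 10000 UMIs it was 0.723, 0.917 and 2.69. In single melanoma cells with at least 5000 UMIs (8212, 6581 and 3984 cells), the member and mt- shares had Pearson's r of 0.0847, 0.0457 and -0.00759, weak correlations within 1 library each that share the cell's total as denominator.

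**Figure D2:**
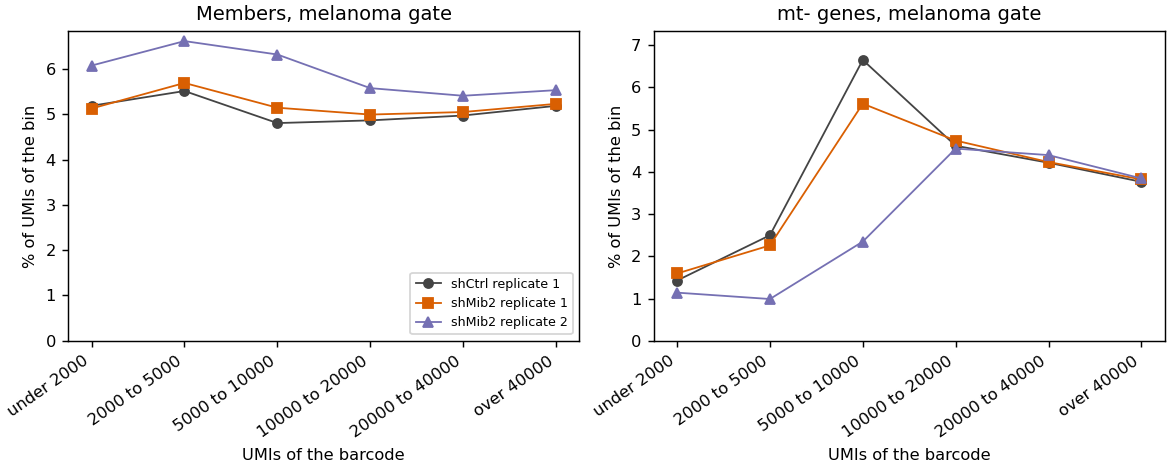
Percent of UMIs from members (left) and mt- genes (right) in melanoma-gate barcodes grouped by their UMIs, with 1 line per library. Member shares stay between 4.81% and 6.61%. The mt- shares run from 0.989% (shMib2 replicate 2, 2000 to 5000 UMIs) to 6.65% (shCtrl, 5000 to 10000 UMIs). In shMib2 replicate 2 they are highest between 10000 and 20000 UMIs, at 4.55%.

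T cells were compared with melanoma cells of the same libraries gene by gene. Of the 93 members, 91 passed the filter on low counts (Cox6b2 and Cox8b did not), and 83 fell and 2 rose in T cells at an adjusted p under 0.05. Across all 10798 genes tested, 44.3% were lower and 27.7% were higher. The median log2 difference was -1.15 over members and -0.33 over all genes. Cox4i2 had no UMI in T cells and 11 in melanoma, and a floor of 3 counts in T cells exceeds its melanoma level. At that floor its log2 difference was 5.32 in place of the fitted -3.08, and the member median was -1.13. The floor therefore sets no bound on its fall. Lower members made up 36 of 39 in complex I, 7 of 8 assembly factors, 4 of 4 in complex II, 8 of 9 in complex III, 11 of 14 in complex IV and 17 of 17 in complex V. The complex medians ran from -1.48 (complex III) to -0.99 (complex V). Leaving out shMib2 replicate 1 left 67 members called, and leaving out shMib2 replicate 2 left 69.

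The members with the largest decreases came from complexes I, III and IV. Ndufa4, named as a complex I subunit and now counted with complex IV, stood at 2450, 2484 and 2750 CPM in melanoma and at 338, 668 and 645 CPM in T cells. Every T value was below every melanoma value, and Ndufa4 fell by 2.25 on the log2 scale (SE 0.16, edgeR adjusted p = 6.66e-14). Uqcrq, a small subunit of complex III, had 1408, 1457 and 1645 CPM in melanoma and 360, 393 and 405 CPM in T cells, a fall by 2.05 (SE 0.18, edgeR adjusted p = 1.35e-11). Ndufa5, an accessory subunit of complex I, fell by 2.03 (SE 0.16). Cyc1, the heme-bearing cytochrome c1 of complex III, had 463, 475 and 447 CPM in melanoma and 122, 142 and 118 CPM in T cells, again without overlap, and fell by 1.94 (SE 0.18). Cox7b, a small structural subunit of complex IV, was at 1116, 1165 and 1310 CPM in melanoma and 338, 403 and 410 CPM in T cells, a log2 difference of -1.72 (SE 0.18). Atp5b, the catalytic beta subunit of the ATP synthase, was at 1248, 1283 and 1175 CPM in melanoma and 561, 693 and 581 CPM in T cells, a log2 difference of -1.07 (SE 0.14). Both Cox7b and Atp5b had T values below all melanoma values.

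Of the 14 members of complex IV tested, 2 were called higher in T cells, Cox7a2l and Cox6a2. Cox7a2l is a relative of the Cox7a subunits that is known for its part in joining complexes III and IV. It had 258, 247 and 231 CPM in melanoma and 511, 330 and 322 CPM in T cells, so that every T value was above every melanoma value. Cox7a2l rose by 0.53 (SE 0.15, edgeR adjusted p = 0.0018). Cox6a2 rested on 0, 2 and 14 UMIs in T cells, 13 of the last 14 in a single barcode that also held a plasmacytoid marker. Uqcrh, the hinge protein of complex III, was not called, with 858, 922 and 933 CPM in melanoma and 713, 891 and 868 CPM in T cells.

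**Figure D3:**
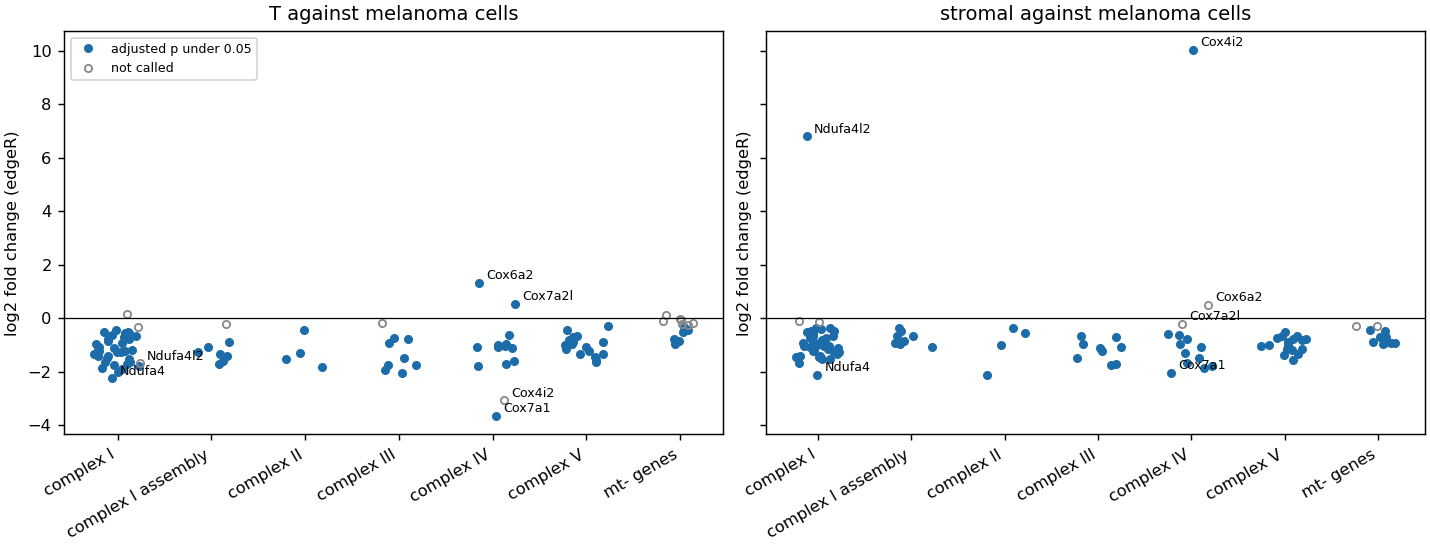
Fitted log2 fold changes (edgeR) of T against melanoma cells (left) and stromal against melanoma cells (right) for each member tested, by complex, and for the 13 mt- genes. Filled points passed an adjusted p under 0.05. Most members lie below 0 in both panels, and in the right panel Cox4i2 at 10.05 and Ndufa4l2 at 6.81 stand above the rest.

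Stromal cells also had lower member levels than melanoma cells, apart from a pair of alternative isoforms. In a fit of 2 stromal sums, 85 of 91 members fell and 2 rose, where 31.6% of all genes fell and 36.7% rose. The medians were -0.99 over members and 0.04 over all genes. Sdhb, the iron-sulfur subunit of complex II, had 598, 636 and 609 CPM in melanoma and 89.2, 147 and 110 CPM in stromal cells, a fall by 2.15 (SE 0.17, edgeR adjusted p = 1.87e-12). Ndufa4 fell by 2.13 (SE 0.18) to 524, 630 and 512 CPM. Cox5b, a zinc-binding subunit of complex IV, fell by 1.77 (SE 0.18), from 1491, 1460 and 1755 CPM to 368, 458 and 448 CPM. For none of these genes did a stromal value reach a melanoma value. Cox7b fell by 1.85 (SE 0.21), and Atp5b differed by -1.03 (SE 0.16). Without shMib2 replicate 2 there were 55 members called, and without shMib2 replicate 1 there were 60.

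The members called higher in stromal cells were Ndufa4l2 and Cox4i2. Cox6b2, a form known from testis, did not pass the filter on low counts. Its stromal values were 5.58, 4.40 and 6.21 CPM (1, 13 and 25 UMIs), against 0.0125, 0.0224 and 0.0217 CPM in melanoma. It was not particular to stromal cells. It made up 1.56%, 0.874% and 1.13% of its UMIs with Cox6b1 there and 0%, 1.34% and 1.51% in myeloid cells (0, 2 and 10 UMIs). T cells had 0, 1 and 7 UMIs and NK cells 0, 1 and 2. With no low-count filter, 3 members were called higher in stromal than in melanoma cells. Ndufa4l2 and Cox4i2 are alternative forms of a subunit, Ndufa4l2 of Ndufa4 and Cox4i2 of Cox4i1, and both are known for induction in low oxygen. The part of low oxygen was not tested. The stromal gate took markers of fibroblasts, endothelial cells and mural cells together. Which of these cells held the UMIs of Ndufa4l2 and Cox4i2 was not tested. Ndufa4l2 had 329, 163 and 145 CPM in stromal cells against 1.51, 1.28 and 1.80 CPM in melanoma, and rose by 6.81 on the log2 scale (SE 0.15, edgeR adjusted p = 5.51e-26). It supplied 38.6% (exact interval 30.8 to 46.8), 20.6% (19.0 to 22.3) and 22.1% (20.5 to 23.7) of the UMIs of the pair in stromal cells, against 0.0617%, 0.0515% and 0.0656% in melanoma. Its UMIs in T cells numbered 0, 0 and 2. Cox4i2 had 15, 50 and 121 UMIs in stromal cells and 3, 1 and 7 in the far larger melanoma gate, and rose by 10.05 (SE 0.42, edgeR adjusted p = 2.47e-17). That made 9.68% (5.52 to 15.5), 2.24% and 4.14% of Cox4 UMIs in stromal cells. It was not seen in T, NK or B cells, and had 0, 2 and 4 UMIs in myeloid cells. The shCtrl stromal shares, the highest for both genes, rest on 19 cells.

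**Figure D4:**
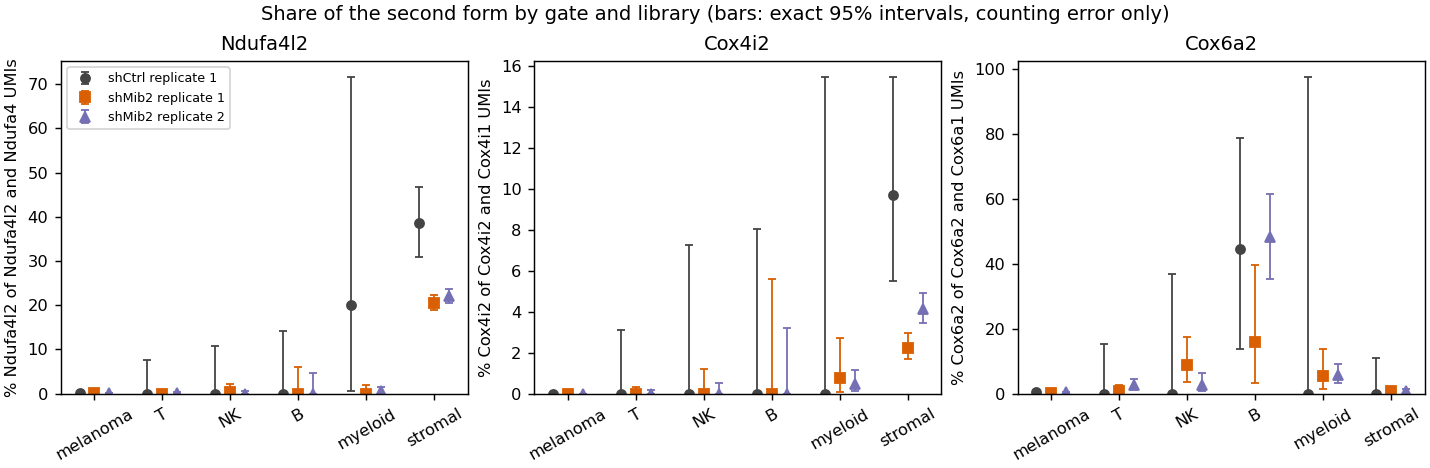
Percent of UMIs from the second form of 3 subunit pairs (Ndufa4l2 with Ndufa4, Cox4i2 with Cox4i1, Cox6a2 with Cox6a1) by gate and library, with exact intervals for counting error only. Ndufa4l2 and Cox4i2 stand highest in stromal cells, and Cox6a2 in B cells at 44.4%, 15.8% and 48.3%.

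The other isoform pairs differed between gates by less, or rested on few molecules. Cox7a1, the heart and muscle form of Cox7a, supplied 1.55%, 1.41% and 1.78% of the Cox7a1 and Cox7a2 UMIs in melanoma. Its share was 1.41%, 1.43% and 1.00% in stromal cells. In myeloid cells it was 0%, 1.92% and 2.50%, from 0, 3 and 15 UMIs. Cox7a1 had 20.5, 19.1 and 28.0 CPM in melanoma and 0, 3 and 5 UMIs in T cells. It was called lower in T cells, a log2 difference of -3.66 (SE 0.36). Cox8b, also a muscle form, had 269, 169 and 206 UMIs in melanoma cells, 0.0527% to 0.0661% of its pair with Cox8a, and none in T, NK, B or myeloid cells. Markers of skeletal muscle were at most 0.388 UMIs per 10000 in any gate. Atp5g1, Atp5g2 and Atp5g3 encode the same c subunit of the ATP synthase rotor behind different import sequences. Atp5g1 made up 54.9% ± 0.162 of its UMIs with Atp5g3 in melanoma, 54.4% ± 0.765 in T cells and 65.1% ± 1.70 in stromal cells (SD, n = 3), so that all stromal values were above all melanoma and T values. Myeloid cells had 65.8% (59.7 to 71.5) and 65.4% (62.0 to 68.7) in the shMib2 libraries, close to stromal cells, and 50.0% in shCtrl, from 10 cells. Atp5g2 made up 63.1% ± 0.448 of its UMIs with Atp5g3 in melanoma and 70.1% ± 2.41 in T cells. How reads from near-identical copies were divided between such genes was not tested.

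The promoters of the members are described here, and their part in the differences between gates was not tested. RefSeq promoters, from 250 bases before to 50 after the gene start in GRCm38.p6, were matched for 76 of 93 members (81 promoters). The core of the NRF1 site was searched on both strands and occurred in 20 of 81 member promoters (24.7%) and in 4.60% of all 32851 promoters. AAGATGGCG, a YY1 motif, occurred in 8 (9.88%), against 1.40% of all. TCAAGGTCA, the ERRalpha half-site, occurred in 2 (2.47%), against 0.423% of all, and both were also searched on both strands. In the promoters printed, no match overlaps another. Shown are Ndufa4 and Atp5b, whose values are followed throughout and which hold none of these motifs, and Atp5g3, Sdhd and Ndufs6, which hold 2 motifs each. Capitals mark the motifs as read on the gene's strand, so a match on the other strand appears reversed and complemented. Atp5g3 and Sdhd hold NRF1 and ERRalpha letters, and Ndufs6 holds NRF1 and YY1 letters. These are letter matches, not measured binding.
Ndufa4 promoter (GRCm38.p6, chr6:11907401-11907700, minus strand): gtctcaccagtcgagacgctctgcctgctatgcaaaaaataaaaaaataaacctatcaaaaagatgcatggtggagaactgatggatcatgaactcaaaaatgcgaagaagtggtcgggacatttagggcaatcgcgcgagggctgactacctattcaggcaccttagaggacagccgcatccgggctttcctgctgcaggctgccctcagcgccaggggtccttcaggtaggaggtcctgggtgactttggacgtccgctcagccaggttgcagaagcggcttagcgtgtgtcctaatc
Atp5b promoter (GRCm38.p6, chr10:128083057-128083356, plus strand): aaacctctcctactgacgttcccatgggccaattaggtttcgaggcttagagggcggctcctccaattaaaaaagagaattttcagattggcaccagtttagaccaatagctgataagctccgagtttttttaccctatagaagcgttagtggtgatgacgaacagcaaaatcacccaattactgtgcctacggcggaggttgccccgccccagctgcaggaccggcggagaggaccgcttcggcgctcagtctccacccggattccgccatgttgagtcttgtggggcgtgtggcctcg
Atp5g3 promoter (GRCm38.p6, chr2:73911277-73911576, minus strand): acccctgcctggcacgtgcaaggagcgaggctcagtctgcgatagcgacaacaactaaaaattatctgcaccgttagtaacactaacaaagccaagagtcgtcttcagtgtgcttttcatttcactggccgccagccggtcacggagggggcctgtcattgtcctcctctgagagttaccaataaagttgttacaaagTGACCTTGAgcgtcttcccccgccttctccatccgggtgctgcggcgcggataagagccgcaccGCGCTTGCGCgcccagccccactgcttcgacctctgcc
Sdhd promoter (GRCm38.p6, chr9:50603800-50604099, minus strand): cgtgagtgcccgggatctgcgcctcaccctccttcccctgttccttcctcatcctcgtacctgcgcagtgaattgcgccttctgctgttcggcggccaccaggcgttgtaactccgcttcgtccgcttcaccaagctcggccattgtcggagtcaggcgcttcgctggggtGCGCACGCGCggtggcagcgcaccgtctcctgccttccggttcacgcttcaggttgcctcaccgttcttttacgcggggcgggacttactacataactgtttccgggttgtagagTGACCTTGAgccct
Ndufs6 promoter (GRCm38.p6, chr13:73328433-73328732, minus strand): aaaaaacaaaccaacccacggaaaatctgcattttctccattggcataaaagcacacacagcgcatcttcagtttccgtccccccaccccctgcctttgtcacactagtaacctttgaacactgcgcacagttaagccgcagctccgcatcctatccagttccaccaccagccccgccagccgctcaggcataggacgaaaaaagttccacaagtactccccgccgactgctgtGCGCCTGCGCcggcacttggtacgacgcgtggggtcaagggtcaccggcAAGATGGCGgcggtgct

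Between NK and T cells no member was called. None of the 91 tested passed edgeR's quasi-likelihood test or DESeq2, where 9.71% of all genes were called by edgeR. An unadjusted p under 0.05 was found for 6 members (6.59%) and for 20.9% of all genes. The medians were -0.13 over members and -0.08 over all genes. Ndufa4 had 843, 733 and 679 CPM in NK cells against 338, 668 and 645 CPM in T cells, Cox7b 369, 418 and 353 CPM against 338, 403 and 410 CPM. Atp5b had 448, 597 and 475 CPM against 561, 693 and 581 CPM. Of these 3 genes, only Ndufa4 had every NK value above every T value, and it was not called.

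B cells gave a smaller share of their UMIs to members and a larger share to mt- genes than T cells. Against T cells, 16 of 91 members fell and 1 rose, where 6.33% of all genes fell and 6.41% rose, while 10 of 13 mt- genes rose and none fell. The medians were -0.34 over members, -0.07 over all genes and 0.56 over the mt- genes. The members that fell included 8 of 39 in complex I and 5 of 17 in complex V. Ndufb7, an accessory subunit of complex I, had 128, 203 and 169 CPM in B cells and 288, 352 and 338 CPM in T cells, and fell by 0.95 (SE 0.21, edgeR adjusted p = 0.00201). Ndufs6, whose promoter is shown above, had 36.5, 83.4 and 128 CPM against 115, 227 and 210 CPM, a fall by 1.00 (SE 0.28, edgeR adjusted p = 0.0151). B and T values of Ndufb7 did not overlap, and those of Ndufs6 did. Ndufa9 fell by 1.52 (SE 0.44), Ndufa10 by 1.31 (SE 0.35) and Ndufa8 by 1.15 (SE 0.30), all accessory subunits of complex I with 9 UMIs or fewer in every B sum. Ndufaf7, an assembly factor of complex I, had no UMI in B cells and 75 in T cells. With B cells set at a floor of 3 counts over the group and the T count taken as exact, it was 2.06-fold lower. Atp5b fell by 0.74 (SE 0.18, edgeR adjusted p = 0.00425), with 329, 405 and 358 CPM in B cells, below all T values. Among mt- genes, mt-Nd2 had 3158, 2169 and 1800 CPM in B cells against 1620, 1264 and 1048 CPM in T cells, and rose by 0.82 (SE 0.15, edgeR adjusted p = 0.000185). The member count moved with single libraries, to 3 without shMib2 replicate 2 and to 27 without shCtrl. Ndufb7 (edgeR adjusted p = 0.116), Ndufa8, Ndufa9 and Ndufa10 were no longer called without shMib2 replicate 2, nor were Ndufs6 (edgeR adjusted p = 0.173) and Ndufa8 without shMib2 replicate 1. B cells had medians of only 804 to 1393 UMIs.

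Cox6a2, the heart and muscle form of Cox6a, was the member called higher in B cells, with 4, 3 and 29 UMIs. It rose by 4.78 (SE 0.54, edgeR adjusted p = 5.21e-08) and made up 44.4% (13.7 to 78.8), 15.8% (3.38 to 39.6) and 48.3% (35.2 to 61.6) of its pair with Cox6a1. These UMIs came from 1, 2 and 3 barcodes. Of them 4 of 4, 2 of 3 and 29 of 29 lay in barcodes with a UMI of Siglech, Ccr9 or Klk1, markers of plasmacytoid dendritic cells that were chosen after the Cox6a2 values were seen. Without such barcodes the log2 difference was 3.54 and the adjusted p 0.427 (edgeR), and under a stricter gate it was -0.20. In barcodes that entered no gate, Cox6a2 had 41, 44 and 209 UMIs, of which 22, 25 and 158 lay in barcodes with a UMI of those markers.

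In myeloid cells, from 2 libraries, the share of members called higher than in T cells was near that of all genes. Of 91 members 23 (25.3%) rose and 2 fell, where 20.8% of all genes rose and 14.8% fell, and the medians were 0.29 over members and -0.02 over all genes. Among mt- genes, mt-Nd2 alone was called, with a log2 difference of -0.49. Uqcrb, a ubiquinone-binding subunit of complex III, had 435 and 478 CPM in the myeloid cells of the shMib2 libraries, against 307 CPM in T cells of each, and rose by 0.84 (SE 0.18, edgeR adjusted p = 0.000281). Ndufb1-ps rose by 0.80 (SE 0.17), Ndufb8 by 0.69 (SE 0.18), Ndufa6 by 0.66 (SE 0.19) and Ndufc1 by 0.60 (SE 0.19), all of complex I by name. Cox7a2l fell by 0.59 (SE 0.19) and Uqcrh by 0.43 (SE 0.15). Cox4i2 had 6 UMIs in myeloid and none in T cells. With T cells set at a floor of 3 counts over the group and the myeloid count taken as exact, it was 7.22-fold higher. The number that rose was 10 with total UMIs in place of TMM and 6 with no low-count filter. No member was called without shMib2 replicate 2, and 4 without shMib2 replicate 1. Of Uqcrb, Ndufb1-ps, Ndufb8, Ndufa6, Ndufc1, Cox7a2l and Uqcrh, Uqcrb alone was still called without shMib2 replicate 1, and all of them kept their direction in both fits.

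Other genes of mitochondrial energy supply were read from fixed lists in the same fits. In T against melanoma cells, 16 of 18 genes of the TCA cycle, which feeds NADH and succinate to complexes I and II, were lower and none was higher, where 44.3% of all genes were lower and 27.7% higher. Idh2, a mitochondrial isocitrate dehydrogenase, had a log2 difference of -3.44. All 8 genes of cytochrome c and the inner and outer membrane carriers were lower, with Cycs (cytochrome c) at -2.35 and Slc25a4 (an ADP/ATP carrier) at -2.24. Glycolysis was lower as well, in 16 of 17 genes, with Tpi1 at -2.52. Of 33 assembly factors 24 were lower and 3 higher, Uqcc3 (0.50) and Sdhaf2 (0.53) among the latter. Of 10 regulators 4 were lower and 1 was higher, so the share that was lower was near that of all genes. Among them Ppargc1a, a coactivator of mitochondrial genes, and Mitf, the melanocyte factor, were each at -4.24, while Gabpb1, a subunit of the GABP (NRF2) factor, was higher at 0.97. In stromal against melanoma cells, 16 of 18 TCA cycle genes were lower and 1, Pdha1, was higher, and all 8 of the carrier list were lower, where 31.6% of all genes were lower and 36.7% higher. In myeloid against T cells, 12 of 17 glycolysis genes and 4 of 8 of the carrier list were higher and none was lower, where 20.8% of all genes were higher, with the glucose transporter Slc2a1 at 2.19. In B against T cells none of 18 TCA cycle genes was called, where 6.41% of all genes were higher and 6.33% lower, and 2 had an unadjusted p under 0.05. In NK against T cells, where 9.71% of all genes were called, 3 of 17 glycolysis genes were lower and none was higher, among them Gapdh at -0.69.

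The effect of the shMib2 label was then tested within each gate, with 1 shCtrl library against 2 shMib2 libraries. No member was called in any of the 4 gates tested by edgeR's quasi-likelihood test. In melanoma cells, where 0.0438% of all genes were called, DESeq2 called 1 member. An unadjusted p under 0.05 was found for 12 of 91 members (13.2%) and for 15.4% of all genes. The median over members was -0.02, with single-library medians of -0.06 for shMib2 replicate 1 and 0.04 for shMib2 replicate 2, on opposite sides of 0. In T cells 0.34% of all genes were called and DESeq2 called no member, while 14 of 87 members (16.1%) and 8.66% of all genes had an unadjusted p under 0.05. The member median was 0.23, against 0.11 over all genes. Ndufaf1 and Ndufaf5 had no UMI in shCtrl, where a floor of 3 counts exceeds their shMib2 levels. At that floor they stood on the negative side, at -1.23 and -1.53, and the member median was 0.20. The single-library medians were 0.20 and 0.25. Both ratios share the shCtrl sum of 74 T cells. Ndufa4 in T cells differed by 0.88 (SE 0.18, edgeR adjusted p = 0.0648), and both shMib2 values, 668 and 645 CPM, were above the shCtrl value of 338 CPM from 47 UMIs. Cox7a2l in T cells differed by -0.72 (SE 0.17, edgeR adjusted p = 0.13), with 511 CPM in shCtrl and 330 and 322 CPM in shMib2. Of the 13 mt- genes 12 were on the negative side in T cells, with a median of -0.35, and none was called.

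In NK cells 0% of all genes were called and DESeq2 called no member, while 5 of 84 members (5.95%) and 5.34% of all genes had an unadjusted p under 0.05, with medians of 0.12 over members and 0.21 over all genes. In B cells 0.071% of all genes were called and DESeq2 called no member, while 3 of 73 members (4.11%) and 3.41% of all genes had an unadjusted p under 0.05, with medians of 0.37 and 0.03. Cox7b in B cells was at 91.3 CPM in shCtrl and 536 and 343 CPM in shMib2, a log2 difference of 2.19 (edgeR adjusted p = 0.428). These values rest on 5 UMIs in shCtrl and 45 and 67 in shMib2. The shCtrl sums behind these comparisons held 74 T, 23 NK and 64 B cells. With 1 shCtrl library, its distance from the shMib2 libraries and the effect of the label cannot be told apart.

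**Figure D5:**
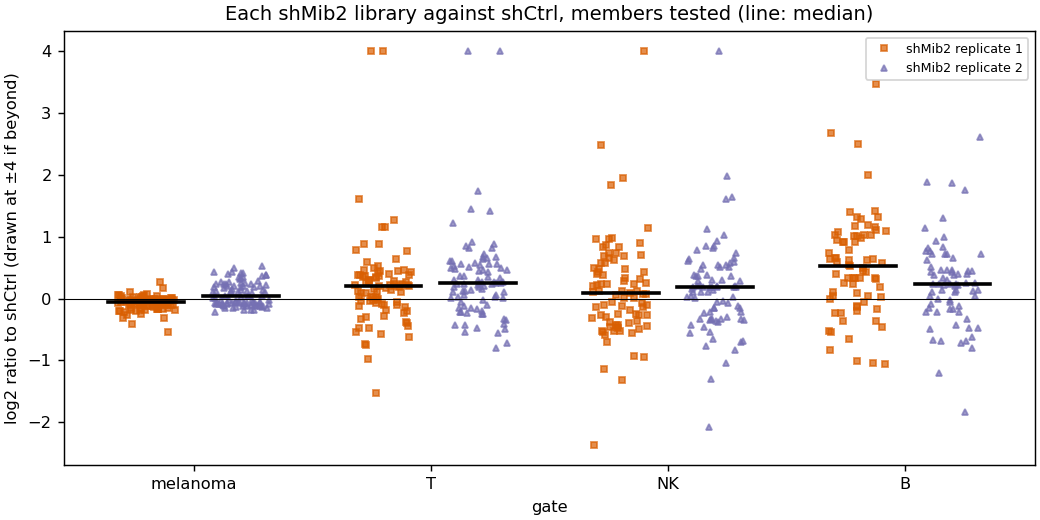
Log2 ratio of each shMib2 library to shCtrl for every member tested in 4 gates, with the median as a line (ratios beyond 4 in size are drawn at 4). Medians lie at -0.06 and 0.04 in melanoma cells and at 0.20 and 0.25 in T cells, and single members scatter more widely in the T, NK and B gates than in melanoma cells.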

How the data were processed

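UMI counts per gene and barcode were deposited by the authors as filtered matrices, 1 for each of 3 libraries (5' V(D)J chemistry, Cell Ranger 4.0.0 and the mm10 build per the submitters' processing notes). Such counts are raw and record the 5' end of each molecule, so no gene length entered any level. Barcodes under 200 genes or over 20% mt- UMIs were removed. A barcode entered the T, NK, B, myeloid or stromal gate with at least 2 distinct markers of that list alone, at least 5 marker UMIs per 10000 and a melanoma-marker level under 0.5 of the library median, and the melanoma gate with no such list and a level of at least 0.25. Barcodes positive for several lists were set aside, and no doublet caller was run (leaving out the 8% deepest barcodes was tried instead).

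Counts were summed per gate and library, and sums from fewer than 20 cells were left out. Sums were normalized by TMM, filtered on low counts, and tested with edgeR 4.0.16 (quasi-likelihood, library as a term between gates, Benjamini-Hochberg over all genes tested, adjusted p under 0.05). DESeq2 1.42.0 was an alternative. The test was also run on simulated data in which few genes changed. That check does not cover comparisons with many changed genes, such as T or stromal against melanoma. With TMM the median of all genes was -0.33 for T against melanoma, so member medians stand beside those of all genes. Shares have exact Clopper-Pearson intervals at 95%, which cover counting error only. Tumors were pooled, and no cultures or animals are separate replicates within a library. Between labels, p-values measure the spread between libraries, and the single shCtrl library was assumed to vary like the shMib2 libraries. Between gates, where library is a term, p-values measure how far gate differences vary between libraries, with the spread shared over all gates.

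Members and lists were chosen with earlier results of these data known. Named are Cox7b, Ndufa4, Atp5b, the isoform pairs, up to 5 members called in each direction (mean of at least 20 CPM, same direction in every library), mt- genes, and up to 2 genes called per pathway list and direction. Other genes in the text were named after their values were seen. Alternatives covered cell filter, gate, doublets, melanoma RNA in other gates, low-count filter, normalization, test and each library left out. Leaving out barcodes with Siglech, Ccr9 or Klk1 was added after seeing the data. No raw reads were used here.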

Additional observations from a re-analysis of the deposited data

Results flagged for a closer look

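For some pairs of gates, NK cells in each, both shMib2 libraries lay above shCtrl in one gate and below it in the other, and the difference was not tested in any case. The mean percent of UMIs from members was 0.277 points higher in the shMib2 libraries than in shCtrl in melanoma cells and 0.172 points lower (-0.172) in NK cells, a gap of 0.449. In melanoma shMib2 replicate 2 carried most of it, at 0.493 points above shCtrl against 0.0605 for shMib2 replicate 1. For T cells the shMib2 libraries were 0.414 points higher, a gap of 0.585 to NK cells. For B cells they were 0.455 points higher, a gap of -0.627 between NK and B cells. The percent of UMIs from mt- genes was 0.577 points lower (-0.577) in shMib2 T cells and 0.237 points higher in shMib2 NK cells, a gap of -0.815. In NK cells shMib2 replicate 1 carried nearly all of it, at 0.465 points above shCtrl against 0.00901 for shMib2 replicate 2. For B cells the mt- share was lower (-1.08), a gap of 1.32 between NK and B cells. It was also higher in shMib2 myeloid (0.461) and stromal cells (0.267), as in NK cells. The ratio of member to mt- UMIs was higher by 0.262 in T cells and lower in NK cells (-0.137), a gap of 0.398. It was higher by 0.190 in B cells, a gap of -0.326 between NK and B cells. In stromal cells the mean ratio also lay on the negative side (-0.0415). The shCtrl NK values rest on 23 cells.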

How the results depend on the processing

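Leaving out 1 library gave 67 to 84 members called for T against melanoma, 55 to 88 for stromal against melanoma, 0 to 2 for NK against T, 3 to 27 for B against T and 0 to 27 for myeloid against T. Fewer samples enter each of these fits. Other settings gave 79 to 85 and 77 to 89 for the first pair of comparisons. For NK against T, 1 member was called with at least 500 genes and at most 10% mt- UMIs per barcode, with expected melanoma counts subtracted, with no low-count filter, and without barcodes holding Siglech, Ccr9 or Klk1. For B against T the count was 27 with no cell filter, 7 with the stricter cell filter, 35 with melanoma counts subtracted and 26 without those marker barcodes. For myeloid against T it was 14 with total UMIs in place of TMM and 9 with no low-count filter. Between labels, melanoma cells gave 3 members with total UMIs and 1 with DESeq2, T cells 1 with total UMIs and 3 with no low-count filter, and NK and B cells 1 each with melanoma counts subtracted. With melanoma counts subtracted, the mean member share was 2.36% in NK and 2.07% in stromal cells. The mt- share of B cells was 5.55% with no cell filter. Cox6a2 made up 56.9% of its pair in B cells with the stricter cell filter and 2.22% under the stricter gate, where its log2 difference to T cells turned to -0.20. Atp5g1 made up 54.4% in melanoma without the deepest barcodes. The cause of these changes was not tested. Relative to the median of all genes, the member median for T against melanoma ran from -0.90 to -0.42, the latter with no low-count filter. The share of calls over all genes that were higher ran with the setting from 38.1% to 49.8% for T and from 45.9% to 63.8% for stromal against melanoma, and from 36.7% to 61.2% for B and from 45.6% to 62.7% for myeloid against T. No paired analysis was possible because the shCtrl label has 1 library and the labels share fewer than 2 replicate numbers. Between labels no count could be given without a shMib2 library (no residual degrees of freedom), nor for B cells under the stricter cell filter, with too few shCtrl cells.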
